A study of Homo sapiens with 9 samples.

Results

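The genes described here are the neighbours of PTH, the parathyroid hormone gene, on chromosome 11, where the cloned antisense transcript PTH-AS has its source locus. Members were the genes of all non-control probes that the array files place between bases 10500000 and 17500000 of chromosome 11 (hg19), with 1 gene per gene name. The rule leaves out PTH, names that begin with KCN, DKK or LINC and names that end in -AS1, which removed 6 names: PTH, KCNJ11, DKK3, LINC00958, MRVI1-AS1 and ZBED5-AS1. This gave 89 genes, read by 108 probes, of 43317 gene names on the array. The question was whether genes near the source locus differ between lines with the full-length transcript, an incomplete one or the empty vector.

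Total RNA of T47D, an established human luminal breast cancer cell line, was hybridized to single-colour oligonucleotide arrays after transfection with the pTARGET vector and selection with G418. T47D-PA6 carries the full-length PTH-AS, T47D-PA5 an incomplete PTH-AS and T47D-VC1 the empty vector, with 3 arrays per line and 9 in all. Each is 1 selected stable line, so the effect of the transcript and that of the line that carries it cannot be told apart. The paper used T47D-PA5 as a negative control and counted changes shared by T47D-PA5 and T47D-PA6 as nonspecific. For brevity T47D-PA5 and T47D-PA6 are together called the PTH-AS lines here. Whether replicates were separate cultures is not stated, so p-values measure only the spread between arrays, and the number of arrays limits the precision. On each array 44% to 48% of the probes had a signal that the files mark as well above background, and 0 spots were saturated. The smallest 2-sided p of an exact permutation test with 3 arrays per line is 0.1, so the tests come from limma, fitted over 20100 tested genes. A gene was tested where its probe was well above background on all 3 arrays of at least 1 line, and it was called where its p-value, adjusted over all tested genes, was under 0.05. Signals are quantile normalized intensities in arbitrary units and are compared only within a probe.

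An antisense transcript is made from the strand opposite a gene. Such a transcript can act on genes beside its own locus, often while still attached to the chromatin there, or on genes elsewhere once it is released. In these lines the transcript was made from an introduced plasmid and not from its own locus. The expression of the genes around that locus was measured in the same cells, while the state of the locus itself was not. The stretch around PTH holds genes of unlike function, among them the clock transcription factor ARNTL (now named BMAL1), the Hippo pathway factor TEAD1, the focal adhesion protein PARVA and the peroxisomal enzyme FAR1.

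The labelled cell type was checked against its markers. All 9 luminal markers were tested, and the keratin gene KRT19 had mean signals of 301000, 301000 and 293000 (T47D-VC1 first, then T47D-PA5, then T47D-PA6, as for the markers that follow). The SD of KRT19 between replicates was 0 in T47D-VC1 and in T47D-PA5. Quantile normalization can make the highest signals equal across arrays, so these values are not read as a comparison of the lines. The oestrogen receptor gene ESR1 had 2790, 2850 and 2690, and GATA3 had 24500, 24200 and 27700. The progesterone receptor gene PGR had 15100, 11600 and 7200, and it was lower in T47D-PA6 than in T47D-VC1 by limma, at -1.07 on the log2 scale (SE 0.17, adjusted p 0.0072), and lower than in T47D-PA5, at -0.69 (SE 0.17, adjusted p 0.037). None of the 3 basal markers (KRT5, KRT14, TP63) was tested, although KRT14 was well above background on 2 T47D-PA6 arrays and 1 T47D-PA5 array. Of the fibroblast markers 1 of 3 was tested, COL1A1, with 347, 311 and 246 and -0.5 on the log2 scale in T47D-PA6 over T47D-VC1 (SE 0.1, adjusted p 0.02), while COL1A2 and PDGFRB were not. Of the leukocyte markers PTPRC was tested, with 20.3, 20.8 and 18, and CD3E was not. Of the endothelial markers CDH5 was tested, with 31.5, 34.7 and 23.3, and PECAM1 was not. None of the 3 parathyroid markers was tested: PTH, GCM2 and CASR were not well above background on any array. What part the cells' state has in the values of the neighbours was not tested.

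Of the 89 neighbours, 38 were tested and 51 were not. That is 42.7%, beside 46.4% of all gene names on the array, 31.5% of the 222 gene names in the window of the same length directly before and 31% of the 87 directly after. On the side before PTH 20 of 46 were tested, and on the side after it 18 of 43. By the names the files give, 28 of 36 gene symbols were tested, 6 of 27 long non-coding transcripts with lnc- names, 3 of 18 with a transcript identifier only and 1 of 5 with a LOC or XR name, while 3 whose gene name in the files is a probe identifier were not. For 37 of the 38 the probe was well above background on all 9 arrays. The exception was AMPD3, an AMP deaminase, which was so on 2 of 3 T47D-PA6 arrays and not on replicate 1.

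The 51 that were not tested include 42 that were not well above background on any array. Among these 42 were LYVE1, a hyaluronan receptor of lymphatic vessels, SPON1, a secreted matrix protein, PDE3B, a phosphodiesterase, CALCA, which encodes calcitonin and its related peptide, INSC, which orients the mitotic spindle, and SOX6, a transcription factor. The other 9 were well above background on at least 1 array: MRVI1, RASSF10, lnc-CTR9-3, lnc-PDE3B-1, lnc-BTBD10-5, lnc-INSC-2, ENST00000525758, ENST00000526112 and ENST00000531749. RASSF10, a RAS association domain protein, had signals of 14.3, 11.9 and 11.6 in T47D-VC1, of 9.42, 16 and 14.9 in T47D-PA5 and of 3.27, 9.13 and 9 in T47D-PA6. It was well above background on 2 arrays of T47D-VC1, 2 of T47D-PA5 and 0 of T47D-PA6, and the 3 T47D-PA6 arrays were lower than every T47D-VC1 and T47D-PA5 array. In a limma fit without a filter on dim probes it did not pass (adjusted p 0.35 over T47D-VC1 and 0.33 over T47D-PA5), and a fold is not measured at signals this near background. PTH itself stayed near background: on 0 of 9 arrays was it well above it, and its minus-strand probe at chr11:13513947-13514006 gave signals from 2.45 to 4.79, with means of 3.1 (T47D-VC1), 2.74 (T47D-PA5) and 2.88 (T47D-PA6).

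For 3 long non-coding transcripts, 2 of them called and 1 read on the opposite strand of ENST00000530418, the 60-base probe sequences (hg19) are shown, because the files give these no gene symbol and the probe is what identifies the transcript measured. The probe of ENST00000530418 lies on the plus strand at chr11:15932557-15932616 and that of lnc-SOX6-1 on the minus strand at chr11:15932527-15932586. The probe of lnc-DKK3-1 lies on the minus strand at chr11:12284403-12284462. Capitals mark the 30 bases over which the first pair are complementary to each other.
ENST00000530418: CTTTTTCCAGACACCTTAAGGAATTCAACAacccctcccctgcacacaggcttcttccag
lnc-SOX6-1: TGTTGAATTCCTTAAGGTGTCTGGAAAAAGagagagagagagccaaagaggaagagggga
lnc-DKK3-1: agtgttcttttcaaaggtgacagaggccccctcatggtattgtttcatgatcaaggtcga
The first pair thus read opposite strands of the same stretch, and both were tested. RefSeq lists lnc-SOX6-1 as another name of LINC02682, whose promoter window lies on the plus strand while this probe lies on the minus strand. The rule was applied to the names in the files, so lnc-SOX6-1 is counted as a member although names that begin with LINC were left out. The lnc-DKK3-1 probe lies 2.79 kb from that of MICAL2, an actin-oxidizing enzyme gene read on the opposite strand.

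Over the whole window the median log2 fold change of the 38 tested neighbours was close to that of all tested genes in each comparison. In T47D-PA6 over T47D-VC1 it was -0.04, beside -0.03 over all 20100 tested genes and 0 over the 1119 other tested genes of chromosome 11. It was -0.03 in T47D-PA5 over T47D-VC1, beside -0.03 and -0.02, and 0.03 in T47D-PA6 over T47D-PA5, beside 0 and 0.03. The window directly before gave -0.07, 0.02 and -0.07 over 70 tested genes and the window directly after gave -0.08, -0.04 and -0.05 over 27. The neighbours above 0 numbered 18, 16 and 21 of 38 in the order of the comparisons above. Their values ran from -0.66 to 0.74 in T47D-PA6 over T47D-VC1, from -0.34 to 0.65 in T47D-PA5 over T47D-VC1 and from -0.73 to 0.61 in T47D-PA6 over T47D-PA5. Within 0.5 of 0 on the log2 scale lay 86.8%, 94.7% and 89.5% of them, beside 81.4%, 88.3% and 82% of all tested genes. The comparisons share arrays, T47D-VC1 in the first pair of comparisons and T47D-PA6 or T47D-PA5 in the others, so their values are not independent of each other.

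**Figure D1:**
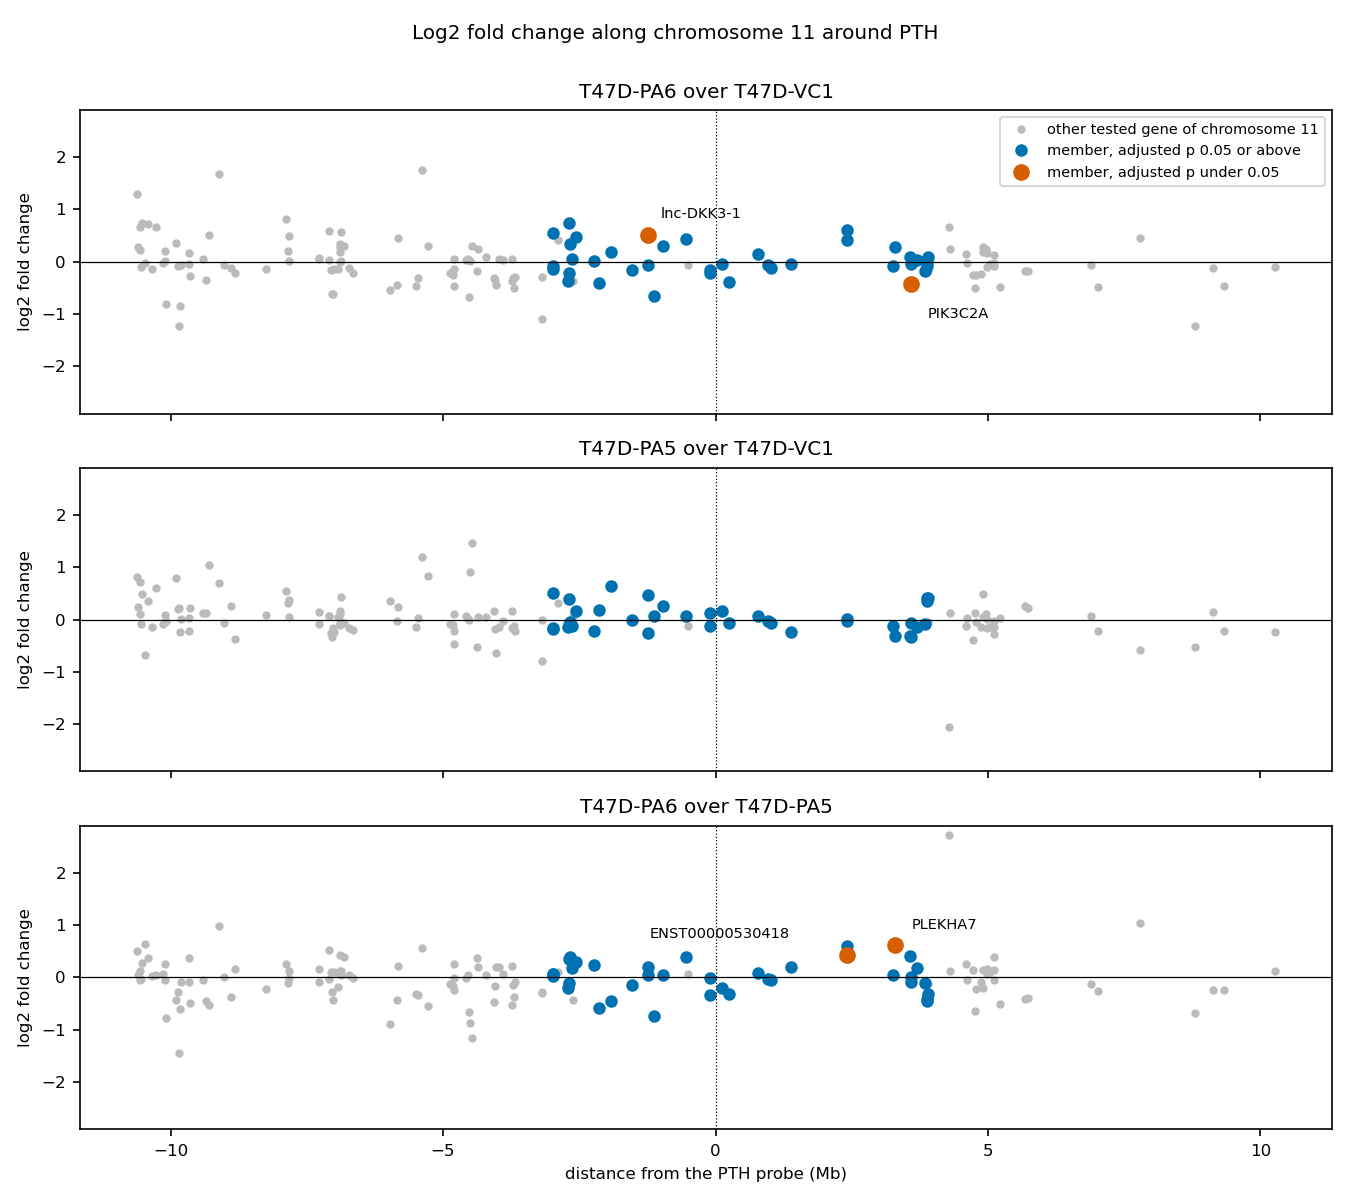
Log2 fold change of each tested gene (vertical axis) against the distance of its probe from the PTH probe in Mb (horizontal axis) in the 3 comparisons, with the neighbours in colour, called neighbours in orange and other tested genes of chromosome 11 in grey. The 8 neighbours within 1 Mb lie from -0.38 to 0.44 in T47D-PA6 over T47D-VC1, from -0.13 to 0.26 in T47D-PA5 over T47D-VC1 and from -0.33 to 0.38 in T47D-PA6 over T47D-PA5.

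The Spearman correlation between a neighbour's distance from PTH and the size of its log2 fold change was -0.17 in T47D-PA6 over T47D-VC1, 0.36 in T47D-PA5 over T47D-VC1 and 0.08 in T47D-PA6 over T47D-PA5, across 38 genes, which are not independent replicates. The 4 called neighbours lay at -1.23 Mb from PTH on the side before it (lnc-DKK3-1) and at 2.419 Mb (ENST00000530418), 3.295 Mb (PLEKHA7) and 3.594 Mb (PIK3C2A) after it. With 4 calls among 38 genes, whether calls depend on distance was not tested. Of the 8 tested within 1 Mb 0 were called in each comparison, beside 10.0%, 1.67% and 9.70% of all tested genes, shares at which fewer than 1 of 8 would be expected.

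The tested gene nearest to PTH was BTBD10, which encodes a BTB domain protein and lies at -0.104 Mb (distances from the PTH probe are negative before it). Its signals were 551, 603 and 551 in T47D-VC1, 544, 517 and 502 in T47D-PA5 and 459, 524 and 562 in T47D-PA6. The T47D-PA6 arrays overlapped those of both other lines, with replicate 1 the lowest of all 9, while the T47D-PA5 arrays were all just under the T47D-VC1 arrays. The log2 fold changes were -0.15 in T47D-PA6 over T47D-VC1 (95% interval -0.39 to 0.09), -0.13 in T47D-PA5 over T47D-VC1 (-0.37 to 0.11) and -0.02 in T47D-PA6 over T47D-PA5 (-0.26 to 0.22).

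ARNTL, whose probe lies 1.46 kb from that of BTBD10 and on the opposite strand, encodes the partner of CLOCK that drives the circadian cycle. It had signals of 589, 532 and 504 in T47D-VC1, 606, 594 and 562 in T47D-PA5 and 409, 473 and 525 in T47D-PA6. All T47D-PA6 arrays were under all T47D-PA5 arrays, but they overlapped those of T47D-VC1. The log2 fold change of T47D-PA6 over T47D-PA5 was -0.33 (95% interval -0.6 to -0.06, limma adjusted p 0.12, lower on 3 of 3 arrays), which did not pass. It was -0.57 between the arrays of slide 1, which holds replicate 1 of each line and was scanned in the earlier run, and -0.17 within slide 3.

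TEAD1, the DNA-binding partner of YAP and TAZ, lies at -0.549 Mb from PTH. It had signals of 1290, 1080 and 1160 in T47D-VC1, 1440, 1120 and 1140 in T47D-PA5 and 1470, 1710 and 1610 in T47D-PA6. All T47D-PA6 arrays were above all arrays of both other lines, which overlapped each other. On the log2 scale it was 0.44 over T47D-VC1 (95% interval 0.14 to 0.74, limma adjusted p 0.07) and 0.38 over T47D-PA5 (0.08 to 0.68, adjusted p 0.11), higher on 3 of 3 arrays each time, and neither passed. Over T47D-VC1 it did pass in 4 of 22 alternatives: with normexp (adjusted p 0.047), with an intensity trend (0.047), without T47D-PA5 replicate 1 (0.04) and in the later scan run alone (0.0043). Over T47D-PA5 it passed in 2 of 22, without T47D-PA5 replicate 1 and in the later scan run alone. Within slide 1 the value over T47D-VC1 was 0.19 and over T47D-PA5 0.03, and within slide 3 they were 0.51 and 0.53. The difference between slides was not tested. PARVA, alpha-parvin, which links integrins to actin, lies at -0.963 Mb and had 298, 330 and 312 in T47D-VC1, 420, 345 and 362 in T47D-PA5 and 368, 410 and 387 in T47D-PA6. Every array of both PTH-AS lines was above every T47D-VC1 array, and those of the PTH-AS lines overlapped each other. The log2 fold change was 0.31 in T47D-PA6 over T47D-VC1 (0.07 to 0.55, adjusted p 0.11) and 0.26 in T47D-PA5 over T47D-VC1 (0.01 to 0.5, adjusted p 0.29).

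On the other side of PTH the nearest tested gene was ENST00000529541, which the files describe as a pseudogene of the nucleosome-binding protein gene HMGN2, 0.118 Mb after it. It had 92.1, 125 and 90.7 in T47D-VC1, 167, 103 and 85.8 in T47D-PA5 and 102, 102 and 93 in T47D-PA6, so that all lines overlapped and the highest array was replicate 1 of T47D-PA5. FAR1, the peroxisomal reductase that makes fatty alcohols for ether lipids, lies 0.239 Mb after PTH and had 401, 403 and 418 in T47D-VC1, 343, 405 and 432 in T47D-PA5 and 254, 339 and 356 in T47D-PA6. Its T47D-PA6 arrays were all under those of T47D-VC1, replicate 1 the furthest, while T47D-PA5 overlapped both. The log2 fold change of T47D-PA6 over T47D-VC1 was -0.38 (95% interval -0.72 to -0.04, limma adjusted p 0.14), with -0.66 within slide 1 and -0.27 within slide 3.

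RRAS2, a RAS family GTPase 0.786 Mb after PTH, had 883, 954 and 931 in T47D-VC1, 1070, 904 and 917 in T47D-PA5 and 982, 1030 and 1030 in T47D-PA6. The T47D-PA6 arrays were above those of T47D-VC1 and within the range of T47D-PA5, with a log2 fold change over T47D-VC1 of 0.14 (95% interval -0.09 to 0.37). COPB1, a subunit of the COPI vesicle coat 0.965 Mb after PTH, had 8310, 9170 and 9420 in T47D-VC1, 7390, 9540 and 9760 in T47D-PA5 and 7880, 8990 and 9020 in T47D-PA6. All lines overlapped, and replicate 1 was the lowest array in each line. Its log2 fold change of T47D-PA6 over T47D-VC1 was -0.06 (-0.36 to 0.24).

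**Figure D2:**
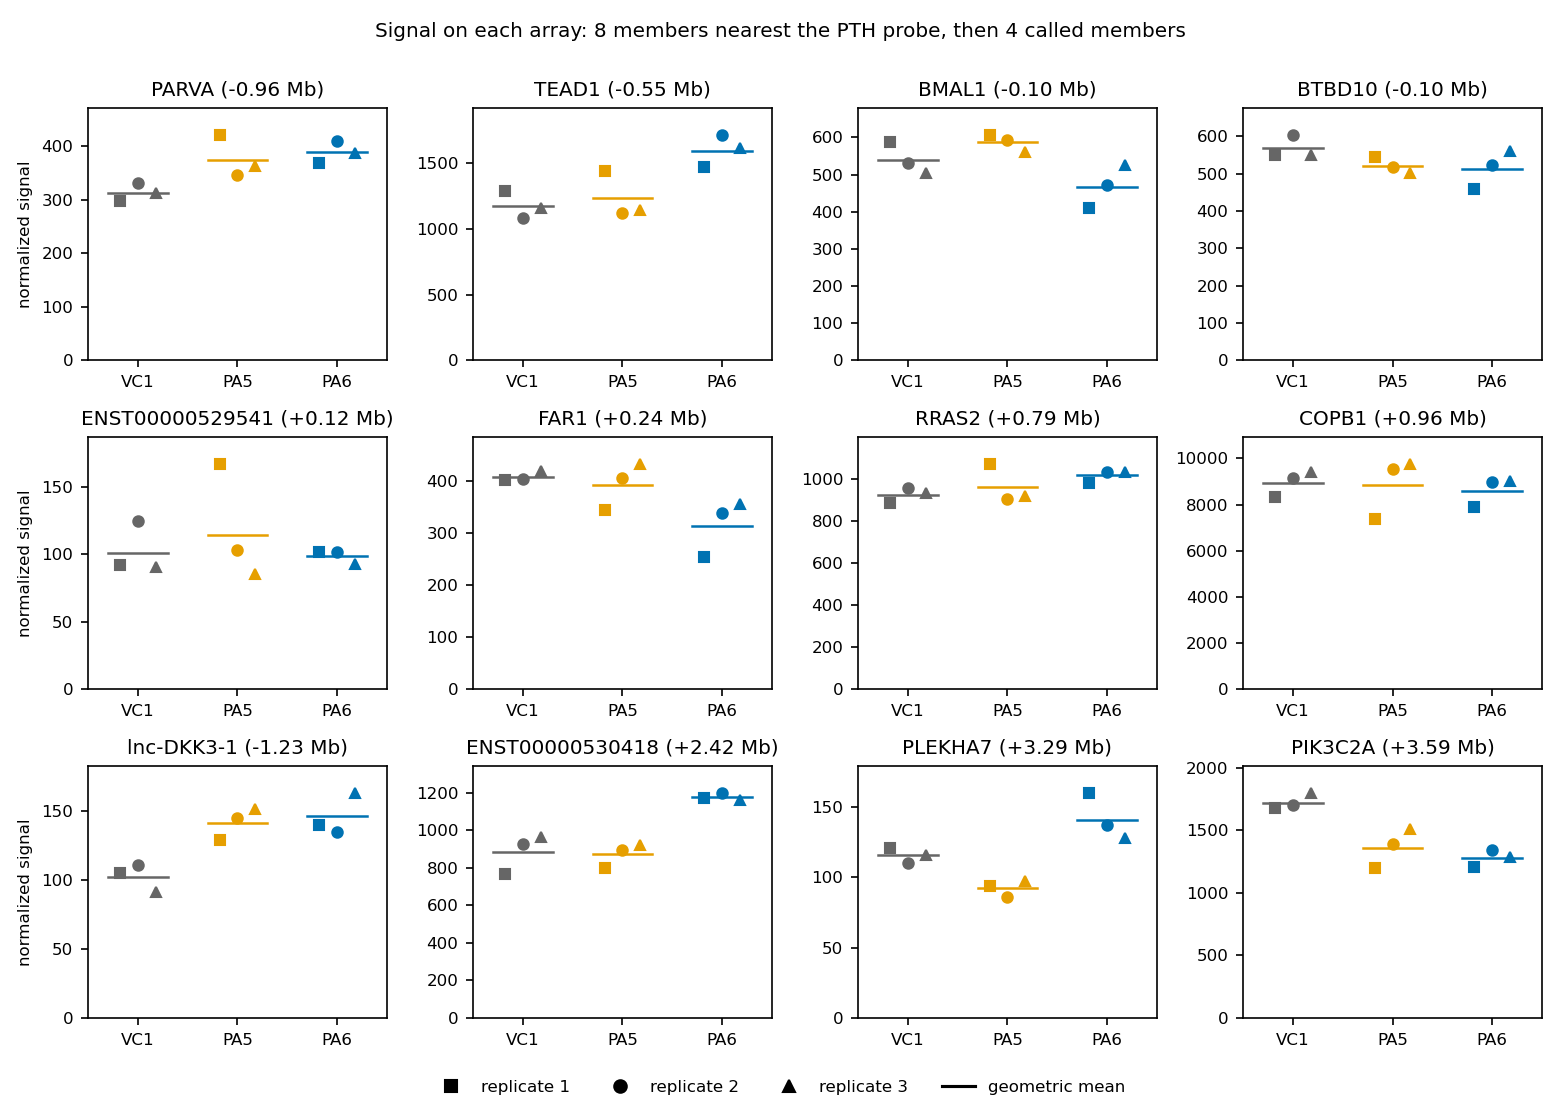
Signal (intensity, linear axis from 0) on each array of the 3 lines for the 8 tested neighbours within 1 Mb of PTH and the 4 called neighbours, with a line at the geometric mean of each line's 3 arrays. For PIK3C2A the T47D-VC1 arrays lie from 1680 to 1800 and those of T47D-PA6 from 1210 to 1340, and for PLEKHA7 the T47D-PA6 arrays lie from 128 to 160 and those of T47D-PA5 from 86.2 to 97.6.

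T47D-PA6 over T47D-VC1 asks what differs with the full-length transcript. A pair of neighbours differed, 1 higher and 1 lower, and a larger number had arrays that did not overlap between the lines. By limma 2 of 38 were called, or 5.26%, beside 10.0% of all tested genes, and 11 (28.9%) had an unadjusted p under 0.05, beside 26.5% of all tested genes. The arrays of the lines did not overlap for 12 of 38, beside 30.9% of all tested genes, with 7 higher and 5 lower in T47D-PA6. By the study's fold limits, over 2 or under 0.6, the count was 0 of 38, beside 7.64% of all tested genes. This count takes the brightest probe of each gene. A dimmer probe of PSMA1, described below, was at -1.01 on the log2 scale, under the lower limit. The flanking windows had 5 of 70 and 1 of 27 called, and the rest of chromosome 11 had 106 of 1119, or 9.47%. The methods name an unpaired t test for comparing datasets in general, while for the arrays they give the fold limits. By that unpaired test, here run gene by gene and adjusted over the same genes, 0 of 38 were called. With only the 2 compared lines in the limma fit 0 were called as well. With the slide entered as a block 4 were called, the same pair with ENST00000530418 (0.41, adjusted p 0.047) and MICALCL (-0.59, adjusted p 0.041), and with the replicate number as a block the same 4 (adjusted p 0.039 for ENST00000530418 and 0.028 for MICALCL). Either way this was 10.5% of the neighbours, beside 11.4% of all tested genes with the slide block and 13% with the replicate block. The count moved when 1 array was left out: it was 4 without T47D-VC1 replicate 1, which added LOC101928053 and lnc-SOX6-1, and 4 without T47D-PA5 replicate 1, which added CTR9 and TEAD1. Without T47D-PA6 replicate 1 it was 3, namely lnc-DKK3-1, AMPD3 and lnc-CTR9-5. In these fits, in that order, 10.5%, 10.5% and 7.89% of the neighbours were called, beside 12.6%, 11.2% and 13.7% of all tested genes. The count of neighbours was 0 without replicate 2 or 3 of T47D-VC1, replicate 2 or 3 of T47D-PA5, or replicate 2 or 3 of T47D-PA6.

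The neighbour called higher was lnc-DKK3-1. It had signals of 105, 111 and 91.1 in T47D-VC1, 129, 145 and 151 in T47D-PA5 and 140, 135 and 163 in T47D-PA6. Every array of both PTH-AS lines was above every T47D-VC1 array, and the PTH-AS lines overlapped each other. It rose by 0.52 on the log2 scale in T47D-PA6 over T47D-VC1 (SE 0.12, 95% interval 0.24 to 0.8, 1.43-fold, limma adjusted p 0.035, higher on 3 of 3 arrays), with 0.42 within slide 1 and 0.57 in the later scan run. The value of T47D-PA5 over T47D-VC1 was 0.47 (0.19 to 0.75, adjusted p 0.11), which did not pass, and that of T47D-PA6 over T47D-PA5 was 0.05 (-0.23 to 0.33). The call in T47D-PA6 was lost without replicate 2 (adjusted p 0.06) or 3 (0.13) of T47D-VC1, replicate 2 (0.062) or 3 (0.059) of T47D-PA5, or replicate 2 (0.072) or 3 (0.13) of T47D-PA6, and kept without replicate 1 of each line. It was also lost by the methods' unpaired test (0.12), with only the 2 compared lines in the limma fit (0.075) and without a filter on dim probes (0.06). With the slide as a block the adjusted p was 0.047. Its opposite-strand neighbour MICAL2 had log2 fold changes of -0.07 in T47D-PA6 over T47D-VC1 and -0.26 in T47D-PA5 over T47D-VC1 (-0.52 to -0.01, adjusted p 0.3).

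The neighbour called lower was PIK3C2A, a class II phosphoinositide 3-kinase of endocytosis and cilia. It had signals of 1680, 1700 and 1800 in T47D-VC1, 1200, 1390 and 1510 in T47D-PA5 and 1210, 1340 and 1290 in T47D-PA6. All arrays of both PTH-AS lines were under all T47D-VC1 arrays, and the PTH-AS lines overlapped each other. It fell by 0.43 on the log2 scale in T47D-PA6 against T47D-VC1 (SE 0.11, 95% interval -0.68 to -0.19, 0.74-fold, limma adjusted p 0.042, lower on 3 of 3 arrays), with -0.48 within slide 1, -0.45 within slide 3 and -0.41 in the later scan run. For T47D-PA5 over T47D-VC1 the difference was -0.34 (-0.59 to -0.09, adjusted p 0.18), and for T47D-PA6 over T47D-PA5 -0.09 (-0.34 to 0.16). The call was lost without replicate 2 (adjusted p 0.1) or 3 (0.14) of T47D-VC1, replicate 2 (0.073) or 3 (0.057) of T47D-PA5, or replicate 1 (0.067), 2 (0.098) or 3 (0.12) of T47D-PA6, and kept without replicate 1 of T47D-VC1 or of T47D-PA5. It was also lost by the methods' unpaired test (0.052), with only the 2 compared lines in the limma fit (0.061) and without a filter (0.057).

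Other neighbours came close without passing in T47D-PA6 over T47D-VC1. ENST00000530418 was at 0.41 (95% interval 0.15 to 0.67, limma adjusted p 0.055, and 0.039 with the replicate block), and CTR9, a scaffold subunit of the Paf1 elongation complex, was at -0.36 (-0.58 to -0.13, adjusted p 0.056). CTR9 had signals of 2020, 1910 and 1980 in T47D-VC1, 1650, 1880 and 1810 in T47D-PA5 and 1430, 1520 and 1660 in T47D-PA6. Its T47D-PA6 arrays were under all T47D-VC1 arrays and overlapped T47D-PA5 at 1 array. The neighbours whose arrays did not overlap were SNORD97, lnc-DKK3-1, PARVA, TEAD1, RRAS2, ENST00000530418 and PLEKHA7 on the higher side and CTR9, EIF4G2, FAR1, PSMA1 and PIK3C2A on the lower. EIF4G2 encodes a translation initiation factor of the eIF4G family and was at -0.22 (adjusted p 0.16), and SNORD97 is a small nucleolar RNA whose probe lies 4.39 kb from that of EIF4G2 on the same strand.

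T47D-PA5 over T47D-VC1 asks what differs with the incomplete transcript. No neighbour passed the test, and those with an unadjusted p under 0.05 had log2 fold changes from -0.34 to 0.47. By limma 0 of 38 were called, beside 1.67% of all tested genes, while 7 (18.4%) had an unadjusted p under 0.05, beside 15.6% of all tested genes. By the methods' unpaired test, adjusted over the same genes, the count was also 0. The arrays of the lines did not overlap for 12 of 38, beside 23.3% of all tested genes, with 5 higher and 7 lower, and by the study's fold limits the count was 0 of 38, beside 3.92% of all tested genes. With the slide as a block it was 0 as well, and leaving out any 1 of the 9 arrays gave 0 each time. The rest of chromosome 11 had 19 of 1119 called, or 1.7%, and the flanking windows had 0 of 70 and 0 of 27.

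The neighbours with an unadjusted p under 0.05 were lnc-DKK3-1, PIK3C2A, NCR3LG1, PLEKHA7, the transcript of probe A_21_P0007429, PARVA and MICAL2. NCR3LG1, which encodes a ligand of an activating receptor of natural killer cells, had signals of 183, 197 and 195 in T47D-VC1, 291, 226 and 256 in T47D-PA5 and 213, 168 and 197 in T47D-PA6. All T47D-PA5 arrays were above all arrays of both other lines. The log2 fold change of T47D-PA5 over T47D-VC1 was 0.42 (95% interval 0.13 to 0.72, limma adjusted p 0.16), and that of T47D-PA6 over T47D-PA5 was -0.42 (adjusted p 0.083). The long non-coding transcript of probe A_21_P0007429, given here by its probe and 1 of the 6 tested with lnc- names, was read 4.36 kb away on the same strand and had 724, 750 and 770 in T47D-VC1, 1080, 875 and 931 in T47D-PA5 and 829, 642 and 651 in T47D-PA6. It too was higher on all T47D-PA5 arrays than on any other, with 0.36 over T47D-VC1 (adjusted p 0.23) and -0.45 for T47D-PA6 over T47D-PA5 (-0.74 to -0.15, adjusted p 0.069). The latter passed with normexp, with an intensity trend, by scaling to the 75th percentile, without T47D-PA6 replicate 1 and in the later scan run alone. Whether the probes read 1 transcript was not tested.

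**Figure D3:**
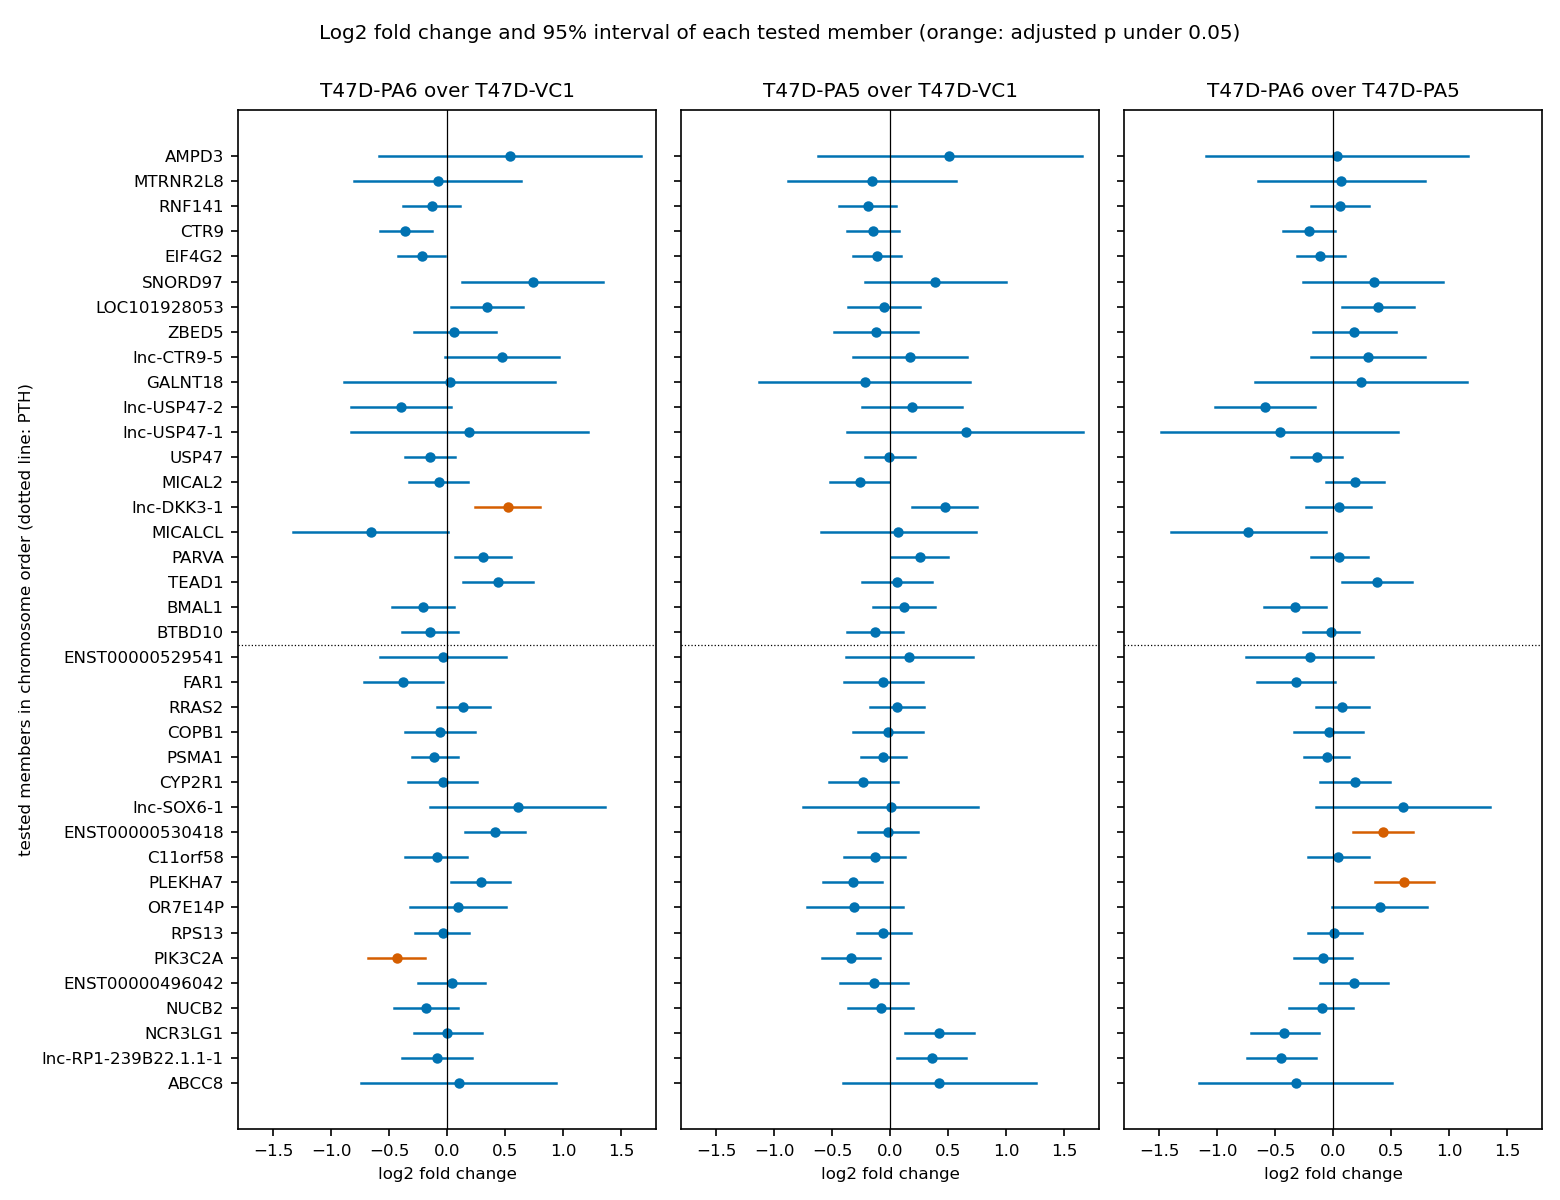
Log2 fold change (points) and 95% interval (bars) of the 38 tested neighbours in chromosome order, with 1 panel per comparison and called neighbours in orange; the dotted line marks the place of PTH. The called values are 0.52 and -0.43 in T47D-PA6 over T47D-VC1 and 0.43 and 0.61 in T47D-PA6 over T47D-PA5, and the widest interval is that of AMPD3.

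T47D-PA6 over T47D-PA5 asks what differs between the full-length and the incomplete transcript. A pair of neighbours differed, both higher in T47D-PA6 and both more than 2 Mb after PTH. By limma 2 of 38 were called, or 5.26%, beside 9.70% of all tested genes, and 9 (23.7%) had an unadjusted p under 0.05, beside 24.9% of all tested genes. The arrays of the lines did not overlap for 11 of 38, beside 32.7% of all tested genes, with 5 higher and 6 lower in T47D-PA6. By the study's fold limits the count was 0 of 38, beside 7.99% of all tested genes. The flanking windows had 6 of 70 and 2 of 27 called, and the rest of chromosome 11 had 80 of 1119, or 7.15%. By the methods' unpaired test 1 was called, LOC101928053, and neither of the pair. With the slide as a block 3 were called, the same pair with MICALCL (-0.66, adjusted p 0.032), and with the replicate block 4, which added lnc-USP47-2. With these blocks 7.89% and 10.5% of the neighbours were called, beside 9.72% and 12% of all tested genes. Without T47D-PA6 replicate 1 the count was 5 (13.2%, beside 14.6% of all tested genes), namely PLEKHA7, AMPD3, lnc-CTR9-5, NCR3LG1 and the transcript of probe A_21_P0007429. Without T47D-VC1 replicate 1 it was 3, the pair with LOC101928053, and without T47D-PA5 replicate 1 it was 2, PLEKHA7 and TEAD1. Without replicate 2 or 3 of T47D-VC1 or replicate 3 of either PTH-AS line it was 1, and without T47D-PA5 replicate 2 or T47D-PA6 replicate 2 it was 0.

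PLEKHA7 encodes a protein of the adherens junction that binds p120 catenin. It had signals of 121, 110 and 116 in T47D-VC1, 93.9, 86.2 and 97.6 in T47D-PA5 and 160, 137 and 128 in T47D-PA6. The lines did not overlap at all, with T47D-PA5 under T47D-VC1 and T47D-PA6 above it. It rose by 0.61 on the log2 scale in T47D-PA6 over T47D-PA5 (SE 0.11, 95% interval 0.36 to 0.87, 1.53-fold, limma adjusted p 0.013, higher on 3 of 3 arrays), with 0.77 within slide 1, 0.44 within slide 3 and 0.53 in the later scan run. Against T47D-VC1 it was 0.29 in T47D-PA6 (0.03 to 0.54, adjusted p 0.14) and -0.32 in T47D-PA5 (-0.58 to -0.07, adjusted p 0.21), and neither passed. The call was lost without T47D-PA5 replicate 2 (adjusted p 0.059) or T47D-PA6 replicate 2 (0.0503) and kept without each of the other 7 arrays, and it was lost by the methods' unpaired test (0.072). With the slide as a block it was 0.59 (adjusted p 0.022).

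ENST00000530418, whose probe is shown above, had signals of 769, 929 and 965 in T47D-VC1, 801, 897 and 923 in T47D-PA5 and 1170, 1200 and 1160 in T47D-PA6. All T47D-PA6 arrays were above all others, while the other lines overlapped each other and had their lowest array at replicate 1. It rose by 0.43 on the log2 scale in T47D-PA6 over T47D-PA5 (SE 0.11, 95% interval 0.17 to 0.69, 1.35-fold, limma adjusted p 0.049, higher on 3 of 3 arrays), with 0.54 within slide 1, 0.36 within slide 3 and 0.38 in the later scan run. The difference of T47D-PA5 from T47D-VC1 was -0.02 (-0.28 to 0.24). The call was kept without T47D-VC1 replicate 1 (adjusted p 0.02) and lost without any other array: replicate 2 (0.072) or 3 (0.068) of T47D-VC1, replicate 1 (0.11), 2 (0.12) or 3 (0.11) of T47D-PA5, or replicate 1 (0.06), 2 (0.16) or 3 (0.14) of T47D-PA6. It was also lost by the methods' unpaired test (0.056), without a filter (0.074), by scaling to the 75th percentile (0.1) and, chosen after seeing the data, with the prior spread from all tested probes (0.052). With the slide as a block the adjusted p was 0.045. On the opposite strand lnc-SOX6-1 had 99, 54.9 and 36.5 in T47D-VC1, 76.7, 50.1 and 52.2 in T47D-PA5 and 83.9, 85.7 and 97.2 in T47D-PA6. Its T47D-PA6 arrays were above all T47D-PA5 arrays, and T47D-VC1 spread across both. Its log2 fold change of T47D-PA6 over T47D-VC1 was 0.61 (SE 0.33, -0.15 to 1.36, adjusted p 0.29).

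The other neighbours whose arrays did not overlap in T47D-PA6 over T47D-PA5 were LOC101928053, TEAD1 and lnc-SOX6-1 on the higher side and lnc-USP47-2, USP47, MICALCL, ARNTL, NCR3LG1 and the transcript of probe A_21_P0007429 on the lower. The long non-coding transcript LOC101928053 was at 0.39 (limma adjusted p 0.11), and lnc-USP47-2 was at -0.59 (95% interval -1.02 to -0.16, adjusted p 0.092, and 0.047 with the replicate block). Both stood on their side of the other line on 3 of 3 arrays. USP47, a deubiquitinase, was at -0.14.

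The 3 neighbours with the largest log2 fold change that did not pass had wide intervals. SNORD97 had signals of 50, 75.8 and 65.9 in T47D-VC1, 59.9, 80.1 and 117 in T47D-PA5 and 105, 86.4 and 127 in T47D-PA6. All T47D-PA6 arrays were above all T47D-VC1 arrays, and T47D-PA5 overlapped both. In T47D-PA6 over T47D-VC1 the difference was 0.74 on the log2 scale (SE 0.27, 95% interval 0.13 to 1.34, limma adjusted p 0.12), with 1.07 within slide 1 and 0.57 in the later scan run. MICALCL, which the files list apart but RefSeq now gives as another name of MICAL2, had 50.1, 95.4 and 68.8 in T47D-VC1, 50.5, 83.3 and 90.3 in T47D-PA5 and 34.4, 50.2 and 48.4 in T47D-PA6. Replicate 1 was the lowest array of each line, and T47D-PA6 replicate 2 was just above T47D-VC1 replicate 1 and just under T47D-PA5 replicate 1. Its difference in T47D-PA6 over T47D-PA5 was -0.73 on the log2 scale (SE 0.29, -1.4 to -0.06, adjusted p 0.17), with -0.56 within slide 1 and -0.82 in the later scan run, and with the slide as a block it was -0.66 (adjusted p 0.032). With the replicate block its adjusted p was 0.021. The transcript lnc-USP47-1 had 160, 312 and 267 in T47D-VC1, 201, 504 and 504 in T47D-PA5 and 165, 329 and 362 in T47D-PA6. Replicate 1 was again the lowest of each line by a wide margin, and the lines overlapped. Its log2 fold change of T47D-PA5 over T47D-VC1 was 0.65 (SE 0.45, -0.37 to 1.66, adjusted p 0.55), with 0.33 within slide 1, 0.69 within slide 2 and 0.92 within slide 3.

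Replicate 1 of every line lay on slide 1 and was scanned in the earlier run, the arrays numbered 2 of T47D-VC1 and T47D-PA5 lay on slide 2, and the other 4 on slide 3. The log2 difference of replicate 1 from the mean of replicates 2 and 3 was large for a few neighbours in each line. For GALNT18, a glycosyltransferase gene, it was -1.09, -0.67 and -1.1 (T47D-VC1 first, then T47D-PA5, then T47D-PA6, as for those that follow), and for lnc-USP47-1 it was -0.85, -1.33 and -1.07. MTRNR2L8, a nuclear copy of the mitochondrial ribosomal RNA gene MT-RNR2, went the other way, with 0.92, 0.49 and 0.66. ABCC8, the sulfonylurea receptor gene, had -1.16, -1.01 and -0.26. AMPD3 had 0.38 and -0.25 in T47D-VC1 and T47D-PA5. In T47D-PA6 its replicate 1, at 12.8 beside 59.4 and 47.5, was the array not well above background, so the size of that difference was not measured. Over all 38 tested neighbours the median size of this difference was 0.18, 0.24 and 0.2, beside 0.25, 0.21 and 0.26 over all tested genes. The median SD between replicates was 0.13, 0.15 and 0.15, beside 0.18, 0.15 and 0.18.

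**Figure D4:**
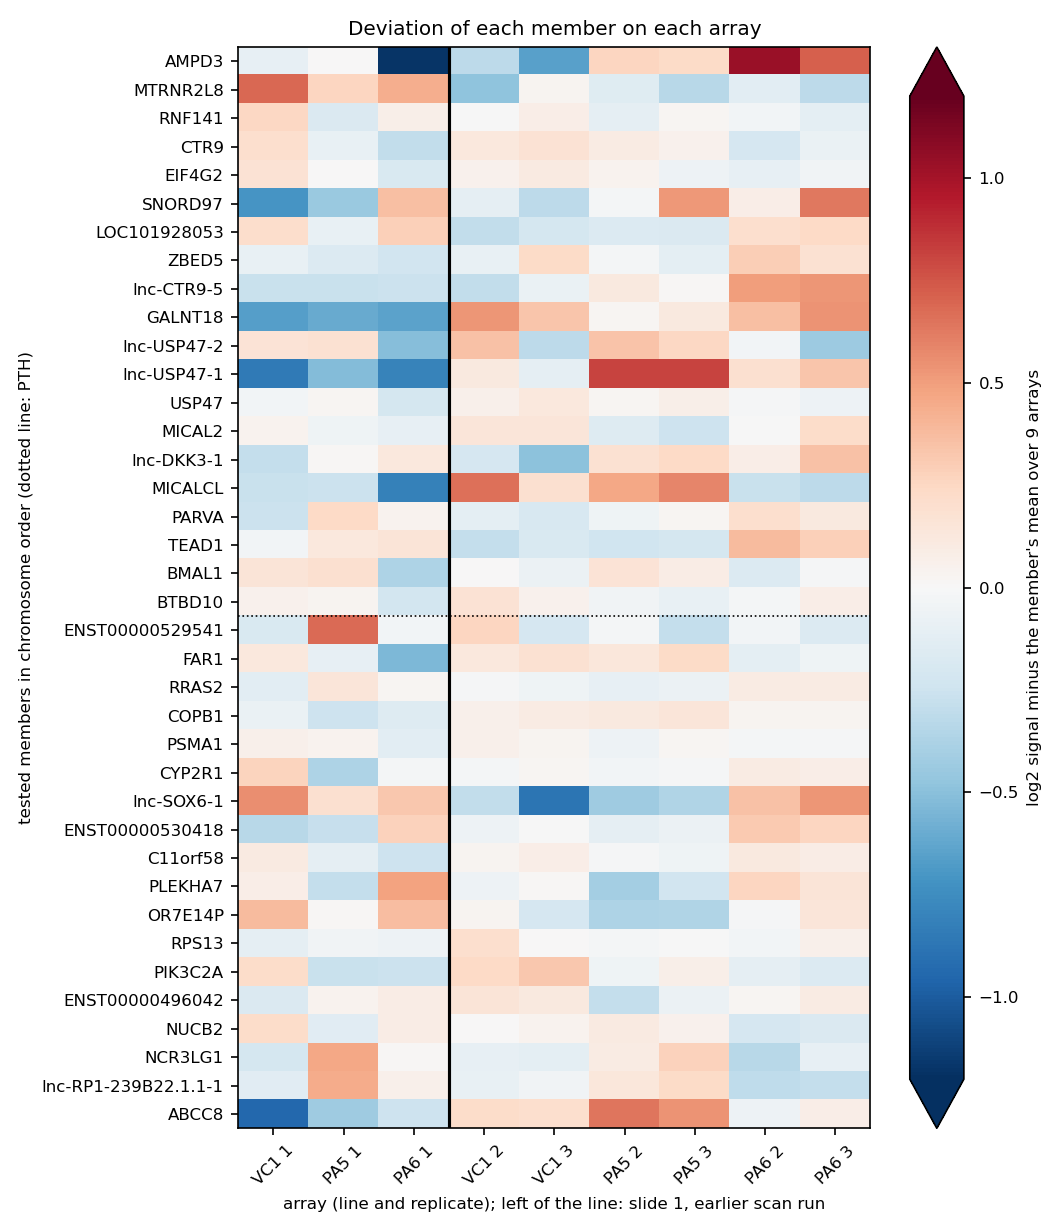
Log2 signal of each tested neighbour on each array minus that neighbour's mean over the 9 arrays, in chromosome order, with the 3 arrays of slide 1 left of the vertical line and the place of PTH at the dotted line. GALNT18 and lnc-USP47-1 are low on all 3 arrays of slide 1 and MTRNR2L8 is high on them, and AMPD3 is lowest on T47D-PA6 replicate 1, with a signal of 12.8.

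Among the neighbours, 8 had more than 1 tested probe, and the brightest stood for the gene. PSMA1, an alpha subunit of the 20S proteasome core, was at -0.11 in T47D-PA6 over T47D-VC1 by its bright probe (mean signal 12800, adjusted p over probes 0.48). A dim probe of PSMA1 (mean signal 59.7), for 1 of its transcript variants by the files, was at -1.01 (SE 0.16, limma adjusted p over probes 0.0075) in the same comparison, at -0.69 in T47D-PA6 over T47D-PA5 (adjusted p over probes 0.033) and at -0.33 in T47D-PA5 over T47D-VC1 (adjusted p over probes 0.38). The probes of FAR1 pointed in opposite directions in T47D-PA6 over T47D-VC1, with -0.38 for the brighter one (mean signal 368) and 0.23 for the dimmer one (77.8). The 3 probes of USP47 gave -0.15 (mean signal 950, adjusted p over probes 0.39), -0.35 (141, adjusted p over probes 0.045, which passed) and -0.52 (23.5, adjusted p over probes 0.19). Those of EIF4G2 gave -0.22 and -0.32. Those of RRAS2, which overlap, gave 0.14 and 0.18, those of RPS13, a protein of the small ribosomal subunit, -0.04 and -0.01, those of C11orf58 -0.09 and -0.23 and those of CYP2R1, a vitamin D hydroxylase, -0.04 and -0.26. Whether probes of a gene differed from each other was not tested.

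The partners of the neighbours that work in known pathways or complexes lie mostly elsewhere in the genome, and no partner was called in T47D-PA5 over T47D-VC1 in any of the 7 lists. Of the circadian partners of ARNTL 15 of 20 were tested. In each comparison 0 were called, beside 10.0%, 1.67% and 9.70% of all tested genes. Their medians were -0.03, -0.06 and -0.08 in T47D-PA6 over T47D-VC1, T47D-PA5 over T47D-VC1 and T47D-PA6 over T47D-PA5. Of the Hippo partners and targets of TEAD1 17 of 20 were tested, with medians of 0.11, 0.04 and 0.01. In T47D-PA6 over T47D-VC1 the kinase gene LATS2 was at -0.35 (SE 0.09, limma adjusted p 0.048; over T47D-PA5 -0.31, adjusted p 0.068, not passed) and the receptor tyrosine kinase gene AXL at 0.9 (SE 0.23, adjusted p 0.045), and in T47D-PA6 over T47D-PA5 AXL was at 1.04 (SE 0.23, adjusted p 0.027). Of the parvin complex 5 of 6 were tested, with medians of 0.33, 0.12 and 0.43. LIMS2, which encodes the adaptor PINCH2, was at 1 in T47D-PA6 over T47D-VC1 (SE 0.15, adjusted p 0.0066) and 0.73 over T47D-PA5 (adjusted p 0.023), and RSU1, which binds PINCH proteins, was at 0.76 (SE 0.19, adjusted p 0.042) and 0.83 (adjusted p 0.031). ILK, the kinase-like protein that PARVA binds, was at 0.43 in T47D-PA6 over T47D-PA5 (SE 0.1, adjusted p 0.035) and did not pass over T47D-VC1 (0.33, adjusted p 0.079).

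In the remaining partner lists the called genes had negative values in T47D-PA6, and 4 of the 6 passed only over T47D-PA5. Of the ether lipid and peroxisome partners of FAR1 6 of 8 were tested, with medians of -0.14, 0.08 and -0.16. GNPAT, which makes the first ether lipid precursor, was at -0.67 in T47D-PA6 over T47D-VC1 (SE 0.12, limma adjusted p 0.014) and -1 over T47D-PA5 (SE 0.12, adjusted p 0.0033), and the import factor PEX19 was at -0.7 over T47D-PA5 (adjusted p 0.011). Of the 20S core all 13 partners of PSMA1 were tested, with medians of -0.06, -0.06 and 0. PSMB7 was at -0.55 over T47D-VC1 (SE 0.09, adjusted p 0.01) and -0.38 over T47D-PA5 (adjusted p 0.038), and PSMB4 at -0.6 over T47D-PA5 (SE 0.1, adjusted p 0.009). All 8 COPI partners of COPB1 were tested, with medians of -0.18, -0.05 and -0.12, and COPA was at -0.88 over T47D-PA5 (SE 0.13, adjusted p 0.0059). All 5 partners of CTR9 in the Paf1 complex were tested, with medians of -0.23, 0 and -0.17, and CDC73 was at -0.86 over T47D-PA5 (SE 0.11, adjusted p 0.0038). Over T47D-VC1 the limma test was not passed by PEX19 (-0.19, adjusted p 0.38), PSMB4 (-0.24, adjusted p 0.16), COPA (-0.32, adjusted p 0.14) or CDC73 (-0.4, adjusted p 0.052). In T47D-PA5 over T47D-VC1 the same 4 were at 0.51, 0.35, 0.56 and 0.46 (adjusted p 0.087, 0.13, 0.07 and 0.078), and none passed. GNPAT was at 0.33 there (limma adjusted p 0.23) and PSMB7 at -0.17 (adjusted p 0.43). Whether called partners of different lists lie near each other on a chromosome was not tested. The counts called were 2, 0 and 1 of 17 for Hippo, 2, 0 and 3 of 5 for parvin, 1, 0 and 2 of 6 for FAR1, 1, 0 and 2 of 13 for the 20S core, 0, 0 and 1 of 8 for COPI and 0, 0 and 1 of 5 for Paf1, beside 10.0%, 1.67% and 9.70% of all tested genes.

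Promoter sequences from RefSeq (GRCh38.p14, the first window listed per symbol) were matched for 23 of the 89 neighbours. The 20 of tested neighbours held a median of 28.5 CG dinucleotides (4 to 37) and the 3 of untested ones 14 (5 to 22). All 35116 windows held a median of 14 (0 to 77). This last set takes every listed window, whether its gene was tested or not, so it is not of like kind. On both strands TATAAA was found in 0 of the 23 windows, beside 11.5% of all windows, and CACGTG, the letters that CLOCK and BMAL1 bind, in 1 (MICAL2), beside 7.26%. C11orf58, which encodes a small acidic protein, had a mean signal of 4190, while SOX6 was never well above background, and their windows share 269 of 300 bases on opposite strands. The window of C11orf58, chr11:16738397-16738696 on the plus strand, is shown for that shared start, with its 24 CG in capitals.
C11orf58: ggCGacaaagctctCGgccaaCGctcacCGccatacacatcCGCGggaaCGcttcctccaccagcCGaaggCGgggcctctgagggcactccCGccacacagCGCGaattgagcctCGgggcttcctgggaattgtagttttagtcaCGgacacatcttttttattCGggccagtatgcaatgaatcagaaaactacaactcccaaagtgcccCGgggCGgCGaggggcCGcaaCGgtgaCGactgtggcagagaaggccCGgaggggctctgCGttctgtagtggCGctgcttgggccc
The log2 fold changes of C11orf58 were -0.09 in T47D-PA6 over T47D-VC1 and -0.13 in T47D-PA5 over T47D-VC1, with no call in any of the 3 comparisons.

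**Figure D5:**
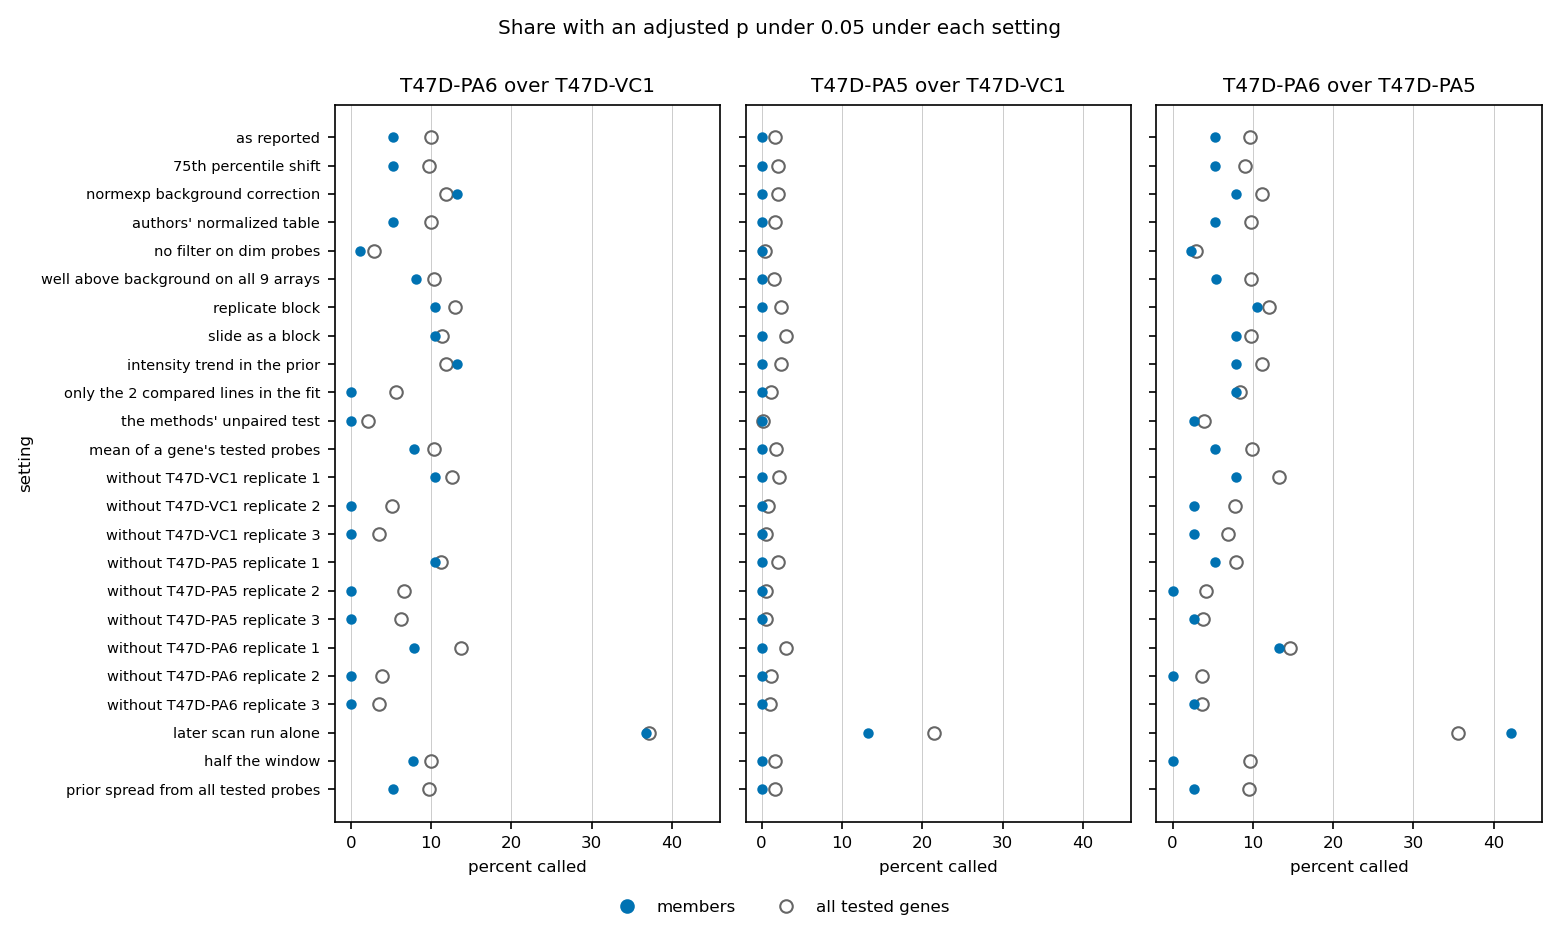
Percent called under each way of processing for the tested neighbours (filled points) and for all tested genes (open circles), with 1 panel per comparison. As reported the neighbours lie at 5.26%, 0% and 5.26% and all tested genes at 10.0%, 1.67% and 9.70%, and with the later scan run alone the neighbours lie at 36.8%, 13.2% and 42.1% and all tested genes at 37.1%, 21.4% and 35.5%.

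The plot of percent called shows the neighbours above all tested genes in T47D-PA6 over T47D-VC1 with normexp background correction (13.2% beside 11.8%) and with an intensity trend in limma's prior (13.2% beside 11.9%), and in T47D-PA6 over T47D-PA5 with the later scan run alone. In every other setting drawn there they lay at or below all tested genes. With the later scan run alone, which leaves 2 arrays per line, 14 of 38 neighbours were called in T47D-PA6 over T47D-VC1, 5 in T47D-PA5 over T47D-VC1 and 16 in T47D-PA6 over T47D-PA5, and all tested genes gave 7465, 4304 and 7133 calls. The earlier run has 1 array per line, so it gives values with no test: the median log2 fold change of the neighbours on slide 1 was -0.1, 0 and -0.04, and in the later run it was -0.04, -0.02 and 0.04.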

How the data were processed

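The authors deposited Agilent Feature Extraction files with processed signals as intensity in arbitrary units, 1 file per array, and a table of normalized intensity. Spots marked as outliers in the files (46 to 117 per array) were dropped, log2 signals were averaged per probe and quantile normalized, and 26173 probes well above background on all 3 arrays of at least 1 line were kept, 1 per gene name (the brightest). Models were fitted with limma 3.58.1 in R 4.3.3 over 9 arrays with 6 residual degrees of freedom, and p-values, 2-sided, were adjusted by Benjamini-Hochberg over 20100 genes. Intervals are 95%. Files were read with the R package data.table (version 1.17.8), sequences with Python 3.11.15, and figures drawn with matplotlib 3.10.9. File headers give Feature Extraction 10.7.1.1 and the methods 9.5.1.1. The code was tested on simulated data.

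Members and lists were chosen with earlier results of these data known. Values on every array are given for the 4 tested neighbours on each side nearest to the PTH probe, every neighbour with an adjusted p under 0.05 in any comparison and the 3 with the largest change that did not pass. Of the partner lists, genes with an adjusted p under 0.05 are named. CTR9, NCR3LG1, the transcript of probe A_21_P0007429, lnc-SOX6-1, RASSF10, AMPD3 and the second PSMA1 probe were singled out after their values were seen.

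The alternatives were a 75th percentile shift, normexp with offset 50, the authors' table, no filter, a filter on all 9 arrays, replicate or slide as a block, an intensity trend, only the 2 compared lines, the methods' unpaired test, the mean of a gene's probes, leaving out each array, the later scan run alone, a narrower window (bases 12250000 to 15750000), and, added after seeing the data, a prior spread from all tested probes. They were run for the neighbours and for the counts over all tested genes, not for single marker or partner genes. Older symbols were matched through RefSeq tables, with no hg19 annotation at hand, so exons and introns are not given.

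Whether replicate numbers mark pairs was checked by correlating the arrays' deviations from their line means. All same-numbered pairs were over the limit of 0.1 in T47D-PA6 over T47D-VC1 (0.338, 0.132 and 0.242) and in T47D-PA6 over T47D-PA5 (0.275, 0.166 and 0.17), so blocked values are given there where they change a call. Not every array correlated best with its own number, arrays numbered 2 and 3 correlated across numbers too, and those numbered 1 shared a slide and scan run, which cannot be told apart from pairing. The labels do not say what a number marks. The blocked calls had been seen before the check was applied to each comparison, and the fit without the block was kept as reported.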

Additional observations from a re-analysis of the deposited data

Results flagged for a closer look

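For a pair of neighbours the direct limma test of T47D-PA6 over T47D-PA5 passed, so that their changes against T47D-VC1 differed between the lines. For PLEKHA7 the difference was 0.61 on the log2 scale (adjusted p 0.013), with 0.29 in T47D-PA6 and -0.32 in T47D-PA5 over T47D-VC1, neither of which passed alone. For ENST00000530418 the difference was 0.43 (adjusted p 0.049), with 0.41 in T47D-PA6 and -0.02 in T47D-PA5. Without T47D-PA5 replicate 2 the adjusted p was 0.059 for PLEKHA7 and 0.12 for ENST00000530418, and without T47D-PA6 replicate 2 it was 0.0503 and 0.16. For ENST00000530418 it was also above 0.05 without replicate 2 (0.072) or 3 (0.068) of T47D-VC1, replicate 1 (0.11) or 3 (0.11) of T47D-PA5, or replicate 1 (0.06) or 3 (0.14) of T47D-PA6. The cause was not tested.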

How the results depend on the processing

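Among the neighbours chosen by the rule for naming, no log2 fold change that passed, as reported or under an alternative, differed in sign between the reported fit and that alternative. For the other neighbours signs were not compared, and AMPD3 in T47D-PA6 over T47D-PA5 was called higher without T47D-PA6 replicate 1 and in the later scan run alone but was at 0.03 as reported and -0.06 with the slide as a block. The median log2 fold change of the neighbours moved by less than the spread between replicates in each of the 3 comparisons under every alternative run. That spread is the median SD of single neighbours (0.15), which a median over many genes reaches less easily, so stability is not read from it. The counts of neighbours called did move. In T47D-PA6 over T47D-VC1 the 2 became 5 with normexp, 5 with an intensity trend, 4 with the slide as a block, 3 of 37 with a filter on all 9 arrays (adding ENST00000530418), 3 with the mean of a gene's probes (adding PSMA1), 14 with the later scan run alone, 1 of 89 without a filter and 1 of 13 in a narrower window, and 0 with only the 2 compared lines and by the methods' unpaired test. Leaving out 1 array at a time gave 0 to 4. In T47D-PA5 over T47D-VC1 the 0 became 5 with the later scan run alone and stayed 0 to 0 when 1 array was left out. In T47D-PA6 over T47D-PA5 the 2 became 16 with the later scan run alone, 1 by the unpaired test (LOC101928053, with both reported calls lost), 3 with normexp, 3 with an intensity trend, 3 with only the 2 compared lines, 3 with the slide as a block, 1 with the prior spread from all tested probes and 0 in the narrower window, and leaving out 1 array gave 0 to 5. By scaling to the 75th percentile it stayed 2, PLEKHA7 and the transcript of probe A_21_P0007429 in place of ENST00000530418, and without a filter 2 of 89, PLEKHA7 and ENST00000526112. The narrower window holds fewer genes by its construction, and for the other alternatives the cause was not tested. Over all tested genes the 2015, 335 and 1950 calls became 7465, 4304 and 7133 with the later scan run alone, 432, 39 and 789 by the unpaired test, and 698 to 2763, 99 to 619 and 726 to 2944 when 1 array was left out.

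With the replicate block the 2 neighbours called became 4 in T47D-PA6 over T47D-VC1 and 4 in T47D-PA6 over T47D-PA5, with the added ones named in the report, and it changed no other call of a neighbour in these comparisons. In T47D-PA5 over T47D-VC1, where replicates 2 had a correlation of 0.0995 and a number was not taken to mark a pair, the count stayed 0. Over all tested genes the block gave 2615, 489 and 2406 calls.

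The log2 ranges that follow cover 23 alternatives, with the earlier scan run (1 array per line, no test) included. Counts passing and adjusted p are for the 22 with a test. Among these, lnc-DKK3-1 in T47D-PA6 over T47D-VC1 passed in 13 of 22 (log2 0.32 to 0.58, adjusted p 0.029 to 0.13) and PIK3C2A in 12 (-0.48 to -0.39, 0.011 to 0.14). In T47D-PA6 over T47D-PA5, PLEKHA7 passed in 19 (0.44 to 0.77, 0.0095 to 0.072) and ENST00000530418 in 10 (0.37 to 0.54, 0.0084 to 0.16). TEAD1 in T47D-PA6 over T47D-VC1 passed in 4 of 22 (0.19 to 0.57, 0.0043 to 0.21). With the prior spread from all tested probes, an alternative chosen after seeing the data, ENST00000530418 had an adjusted p of 0.052. Its result and the one reported had both been seen when the fit over genes was kept as reported, as the design had it. Of the log2 fold changes of the neighbours chosen by the rule, 944 kept their side of the threshold or stayed within the spread, 33 moved, 24 newly passed and 34 no longer passed.

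Signal over background limits these results: 51 of the 89 neighbours were not tested, so whether they differ is not known. With 3 arrays per line the intervals of called neighbours span about the size of their changes.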

Other observations

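Without a filter on dim probes 1 of 89 neighbours was called in T47D-PA6 over T47D-VC1 and 2 in T47D-PA6 over T47D-PA5, PLEKHA7 and, in both, ENST00000526112, a transcript read at -0.954 Mb from PTH, on the side before it, chosen here after its values were seen. Its signals were 11.4, 15.5 and 12.6 in T47D-VC1, 11.5, 5.68 and 9.18 in T47D-PA5 and 2.61, 2.58 and 3.69 in T47D-PA6, with all T47D-PA6 arrays under all others. It was well above background on 2 T47D-VC1 arrays and on no other array, so the size of the difference was not measured and no fold is given.

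Single bright spots were more frequent on T47D-PA6 replicate 1 than on the other arrays. Of 23217 genes that were not tested, 482 had a signal at least 8 times the median of the other arrays on that array alone, beside 9 to 81 on the others, and 117 of its spots were marked as outliers, beside 46 to 68. The neighbours among these were lnc-INSC-2 with 294 beside a median of 3.03, lnc-BTBD10-5 with 28.1 beside 2.73 and ENST00000531749 with 28.1 beside 2.49.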
